A study of Populus tremula x Populus alba with 4 samples.

Results

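The 5 genes described here are the cellulose synthases of the poplar secondary wall, CesA4, CesA7-A, CesA7-B, CesA8-A and CesA8-B, 5 of the 41335 genes in the tables. They were chosen by their IDs, Potri.002G257900.1 for CesA4, Potri.006G181900.1 for CesA7-A, Potri.018G103900.1 for CesA7-B, Potri.011G069600.1 for CesA8-A and Potri.004G059600.1 for CesA8-B. The prefix of such an ID names a chromosome, here 2, 6, 18, 11 and 4 in that order. The files hold no coordinates and pair no ID with a name, so the gene names rest on the list of IDs and were not checked against an annotation. All 5 passed the filter on low counts, as did 30975 genes in all.

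RNA was sequenced from the bark of MIR15 transgenic poplars and of wild-type (WT) poplars, 2 libraries each. Both groups are the hybrid clone INRA 717-1B4 (Populus tremula x P. alba), a line much used for transformation, and both were started in sterile culture, with kanamycin where needed, and then moved to soil in a growth chamber. The labels give the libraries of a genotype as biological replicates, but not the age of the plants, the promoter or target of MIR15, or whether the MIR15 libraries came from 1 transgenic line. Nor do they say whether plants were pooled. The comparison asks how transcript levels in bark differ between the transgenic and the wild-type plants.

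Cellulose is made at the plasma membrane by complexes of cellulose synthase (CesA) subunits, which spin glucan chains directly into the wall. One set of CesA classes serves the thin primary wall of growing cells. CesA4, CesA7 and CesA8 serve the thick secondary wall laid down after growth has stopped, and Arabidopsis mutants that lack any of these 3 classes have weak, collapsed vessels. In a woody stem such walls are found in wood and, in the bark, in the phloem fibres. Poplar has a single CesA4 and a pair of paralogs each for CesA7 and CesA8. The tissue label could not be checked against markers of phloem, xylem or periderm, because the files give no names for those genes.

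Library totals, here the sum of total gene reads over all genes, were between 68453851 and 82789893 reads. Reads not counted for a gene are outside these totals. Of the totals, the 5 genes together took 0.0490% and 0.0513% in MIR15 replicates 1 and 2 and 0.0574% and 0.0414% in WT replicates 1 and 2. Levels are given as CPM, the total reads of a gene scaled to the library total. The lowest count of any of the 5 genes in a library was 1894 reads, and counting error was small beside the differences between the WT libraries. Transcript lengths were not available here, so levels are compared between libraries for a given gene, not between genes.

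All 5 genes were expressed in the bark of both genotypes, and the averages of MIR15 and WT were close. CesA4, the class that poplar holds as a single gene, had 157 and 165 CPM in MIR15 replicates 1 and 2, against 185 and 133 CPM in WT replicates 1 and 2. The MIR15 libraries lay close together, between the WT libraries. CesA4 averaged 161 ± 5.32 CPM in MIR15 and 159 ± 36.9 CPM in WT (SD, n = 2 each).

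Of the CesA7 paralogs, CesA7-A had 54.6 and 60.0 CPM in MIR15, against 64.7 and 47.9 CPM in WT, again replicate 1 before replicate 2. CesA7-B had 102 and 104.6 CPM in MIR15, against 114 and 84.9 CPM in WT. Both paralogs thus took the order seen for CesA4, with WT replicate 1 highest, WT replicate 2 lowest and the MIR15 libraries between. Between the MIR15 libraries CesA7-B did not differ beyond counting error, with a ratio of replicate 1 to replicate 2 of 0.972 and an exact 95% counting interval from 0.940 to 1.00. CesA7-A averaged 57.3 ± 3.79 CPM in MIR15 and 56.3 ± 11.9 CPM in WT, and CesA7-B 103 ± 2.10 CPM in MIR15 and 99.3 ± 20.4 CPM in WT (SD, n = 2 each).

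The CesA8 paralogs parted from each other in MIR15. CesA8-B had 140 and 156 CPM in MIR15, against 172 and 120 CPM in WT, in the same order as CesA4 and both CesA7 genes. CesA8-A had 37.05 and 27.2 CPM in MIR15, against 38.3 and 28.4 CPM in WT. In CesA8-A each genotype therefore held 1 high and 1 low library, and MIR15 replicate 2, second highest for the other 4 genes, was its lowest. CesA8-A averaged 32.1 ± 6.99 CPM in MIR15 and 33.4 ± 7.03 CPM in WT, and CesA8-B 148 ± 11.8 CPM in MIR15 and 146 ± 36.9 CPM in WT (SD, n = 2 each).

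**Figure D1:**
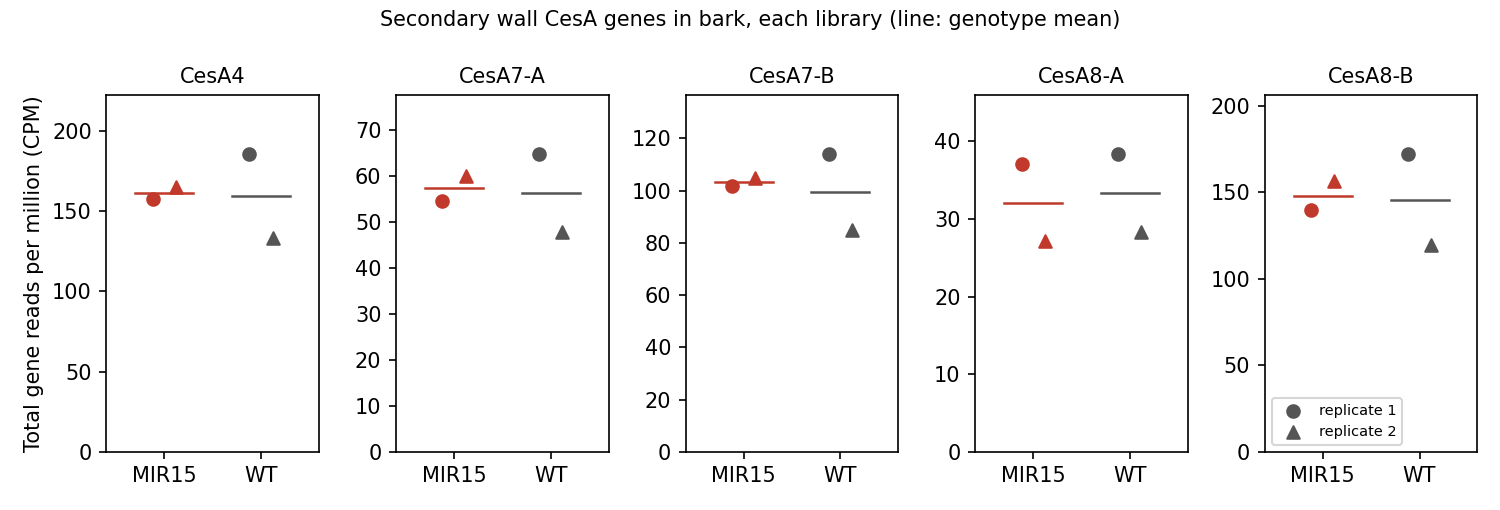
Level of each gene in each library, in CPM, with a separate axis from 0 for each gene. Circles are replicate 1, triangles replicate 2 and lines genotype means; in 4 genes both MIR15 libraries lie between the WT libraries, while CesA8-A has 37.05 and 27.2 CPM in MIR15 and 38.3 and 28.4 CPM in WT.

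None of the 5 genes passed the test between MIR15 and WT. In edgeR's quasi-likelihood test over the whole table, 0 of 5 passed an adjusted p of 0.05, where 0.00323% of all tested genes did, which is 1 gene, Potri.003G037700.1. None of the 5 had an unadjusted p under 0.05, against 2.47% of all tested genes, and none was called by DESeq2, which called 0.0407%, or by edgeR with the replicate number as a block, which called 0.387%. In 0 of 5 were the genotypes separate in CPM, against 25.1% of tested genes.

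The estimated differences were small, and the intervals around them wide. CesA7-B had the largest, a log2 fold change of MIR15 over WT of 0.07 ± 0.18 (SE), with a 95% interval from -0.36 to 0.50 and an adjusted p of 1.00 in edgeR. CesA4 had 0.03 ± 0.20 (SE), CesA7-A 0.04 ± 0.18 and CesA8-B 0.04 ± 0.21, and CesA8-A had -0.04 ± 0.22. Their intervals together ran from a fold of 0.679, for CesA8-A, to a fold of 1.44, for CesA8-B. For each gene, a change within its own interval in either direction could not have been told from none. In bulk tissue, fewer cells of a type and less RNA per cell cannot be told apart.

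Over the 5 genes, 4 log2 fold changes were above 0 and 1 below, with a median of 0.04, and over all tested genes 49.8% were above 0, with a median of -0.0008. A log2 fold change of at most 0.07 in size, the largest among the 5, was found in 29.1% of all tested genes. The sign of the median depends on 1 WT library: it was 0.31 without WT replicate 1 and -0.20 without WT replicate 2, with none of the 5 genes called in either case.

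**Figure D2:**
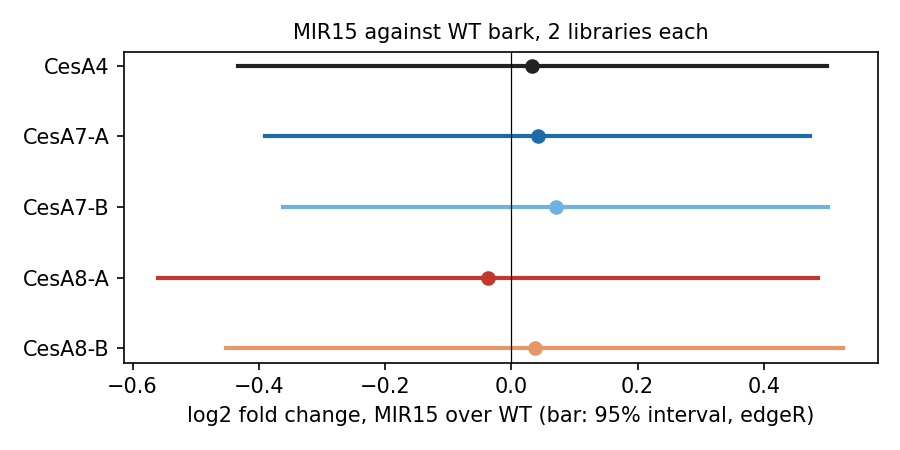
Log2 fold change of MIR15 over WT for each of the 5 genes (points), with the 95% interval from edgeR (bars), over 2 libraries per genotype. All 5 intervals span 0, and the points lie between -0.04 and 0.07.

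In each of the 5 genes the WT libraries differed more than the genotype means did. In WT, replicate 1 exceeded replicate 2 in all 5 genes, by 1.39-fold in CesA4, 1.35-fold in CesA7-A, 1.34-fold in CesA7-B, 1.35-fold in CesA8-A and 1.44-fold in CesA8-B. The exact 95% counting intervals ran from 1.28 for the lowest bound, in CesA8-A, to 1.47 for the highest, in CesA8-B. The 16270 genes that averaged 10 CPM or more were taken for comparison. Their log2 differences between the WT libraries had quartiles of -0.18 and 0.15 and a median of -0.02. The 5 cellulose synthase genes had log2 differences between 0.42 and 0.52, and between 3.90% and 6.15% of those genes differed at least as much in the same direction.

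Between the MIR15 libraries 4 of the 5 genes differed less than between the WT libraries, and CesA8-A about as much. CesA4, CesA7-A, CesA7-B and CesA8-B were lower in replicate 1, with ratios of replicate 1 to replicate 2 of 0.954, 0.911, 0.972 and 0.893. Falls at least as large were common, in 29.9% of the 16270 genes for CesA8-B up to 47.1% for CesA7-B. CesA8-A was higher in replicate 1, by 1.36-fold, with an exact 95% counting interval from 1.28 to 1.45. A rise at least as large as that of CesA8-A was seen in 5.29% of the 16270 genes. In reads that matched a single gene only, CesA8-A had 39.1 and 28.6 CPM in the MIR15 libraries. Over the 4 libraries 0.439% of its reads were counted as shared, so both counts hold nearly the same reads.

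**Figure D3:**
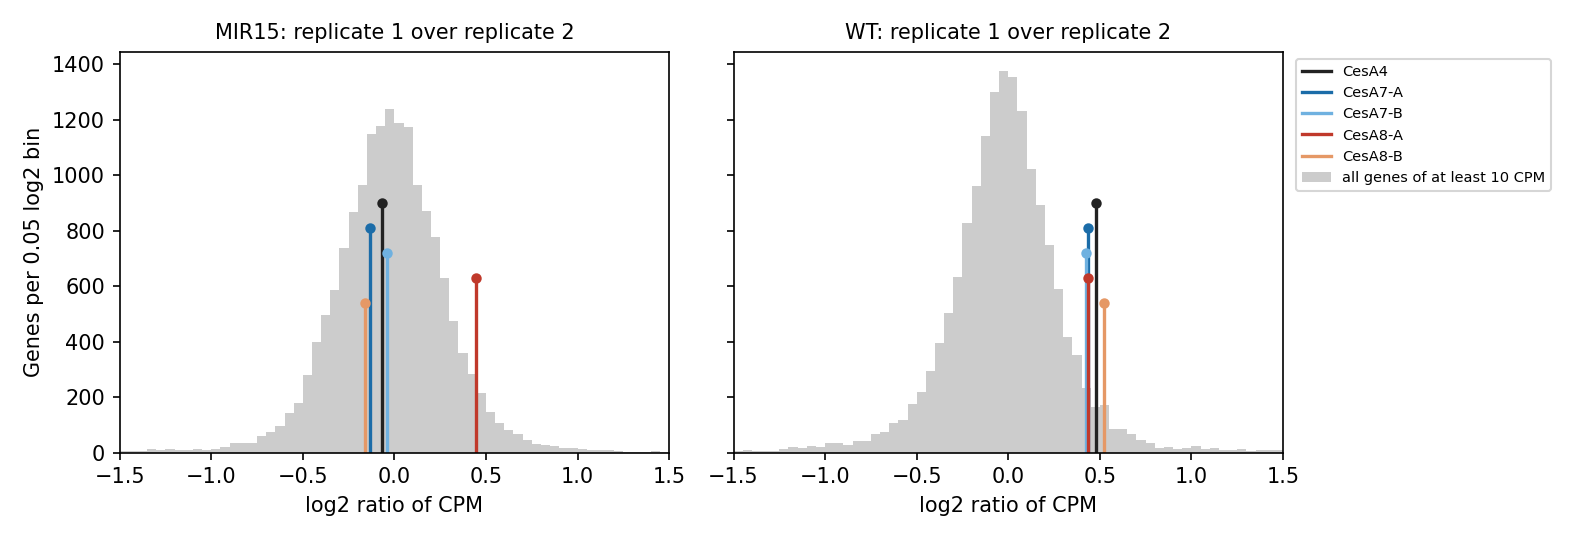
Log2 ratio of replicate 1 to replicate 2 in MIR15 (left) and WT (right). Grey bars count the genes that averaged 10 CPM or more, in bins of 0.05, and coloured lines, whose heights carry no value, mark the 5 cellulose synthase genes; in WT all 5 lie between 0.42 and 0.52, and in MIR15 CesA8-A lies at 0.45 with the other 4 between -0.16 and -0.04.

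While their summed level varied, the 3 classes kept nearly the same proportions of reads. The sum of the 5 genes was 490 and 513 CPM in MIR15, against 574 and 414 CPM in WT, a range of 1.39-fold. CesA4 took 32.1% and 32.1% of this sum in MIR15, against 32.3% and 32.1% in WT. CesA7 took 31.9% and 32.1% in MIR15, against 31.1% and 32.1% in WT, and CesA8 took 36.1% and 35.8% in MIR15, against 36.6% and 35.8% in WT. No class moved by as much as 1 percentage point between any pair of libraries. The lower CesA7 share of WT replicate 1 was still beyond counting error, with an exact binomial 95% interval from 30.7% to 31.5%, against 31.57% to 32.6% in WT replicate 2. These are shares of reads, which also depend on transcript length, and are not shares of molecules.

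The ratio of CesA7 to CesA4 reads was 0.994 and 0.999 in MIR15, against 0.964 and 0.999 in WT. That of CesA8 to CesA4 was 1.12 and 1.11 in MIR15, against 1.14 and 1.11 in WT. Across the 4 libraries the first ratio spanned 1.04-fold and the second 1.02-fold. Both use the summed reads of a paralog pair, so they are not like for like with the single genes that follow. The ratio to CesA4 of each of 16265 other genes was taken in the same way, and its span had a median of 1.47-fold and a lower quartile of 1.33-fold. CesA7-A, CesA7-B and CesA8-B, taken singly, had spans of 1.05-fold, 1.05-fold and 1.07-fold, and 0.123%, 0.141% and 0.283% of the other genes had a span as small. CesA8-A spanned 1.43-fold, and 43.1% of the other genes had a span as small. All these ratios share the counts of CesA4 and the same 4 libraries, so they are a description of these libraries.

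All 5 class and paralog ratios overlapped between the genotypes. On the log2 scale, MIR15 minus WT was 0.02 for CesA7 over CesA4, -0.01 for CesA8 over CesA4 and 0.03 for CesA7 over CesA8, each with p = 0.667 in the two-sided exact permutation test over libraries. It was -0.03 for CesA7-A over CesA7-B and -0.10 for CesA8-A over CesA8-B, each with an exact p of 1.00. Adjusted over the 5 ratios, every exact p was 1.00, and with 2 libraries against 2 the smallest p this test can give is 0.333. The signs rest on single libraries. Without WT replicate 1 the 3 class ratios turned to -0.0032, 0.0065 and -0.0097, without MIR15 replicate 1 that of the CesA7 pair turned to 0.02, and without MIR15 replicate 2 that of the CesA8 pair turned to 0.21.

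The CesA7 paralogs also kept their balance, and the CesA8 paralogs did so less. CesA7-A made up 35.0% and 36.5% of CesA7 reads in MIR15, against 36.3% and 36.1% in WT. CesA8-A made up 21.0% and 14.8% of CesA8 reads in MIR15, with exact binomial 95% intervals from 20.2% to 21.7% and from 14.2% to 15.4%, against 18.2% and 19.2% in WT. The ratio of CesA8-A to CesA8-B spanned 1.53-fold over the 4 libraries and that of CesA7-A to CesA7-B 1.07-fold. Both ends of the CesA8 range were MIR15 libraries, and the WT libraries lay between them. CesA8-A had 27.2 CPM and CesA8-B 156 CPM in MIR15 replicate 2. There the CesA8 class as a whole took 35.8% of the reads of the 5 genes. It took 36.1% in MIR15 replicate 1, and 36.6% and 35.8% in WT replicates 1 and 2. Whether the paralogs offset each other was not tested.

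**Figure D4:**
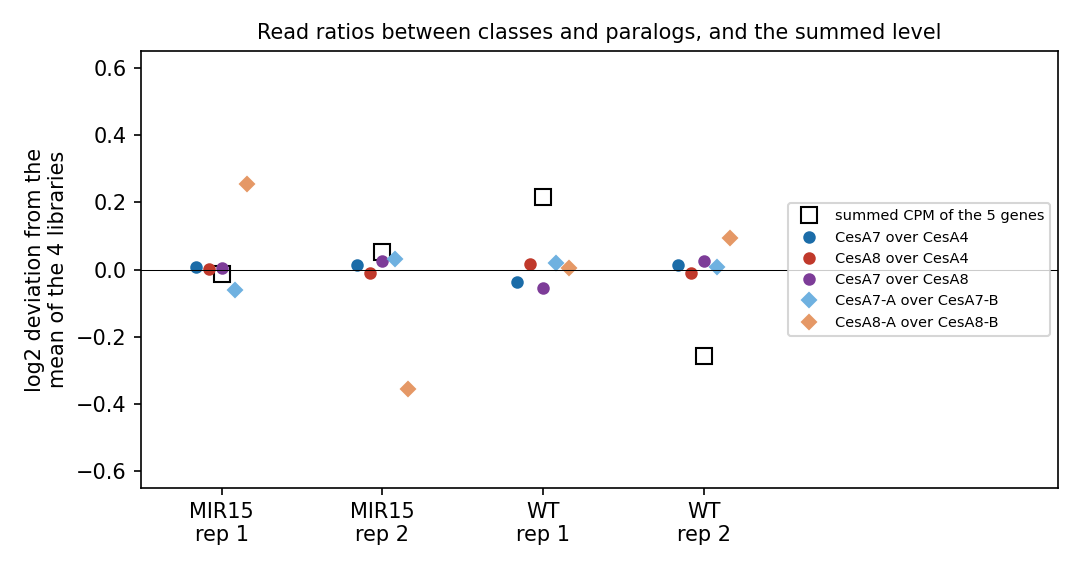
Log2 deviation of each read ratio, and of the summed CPM of the 5 genes (open squares), from its own mean over the 4 libraries. The class ratios (circles) and the CesA7 pair (blue diamonds) stay near 0 where the sum spans 1.39-fold, and the CesA8 pair (orange diamonds) spans 1.53-fold, with both ends in MIR15.

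Only a small share of the reads of each paralog was counted as shared with another place. These counts do not show whether each read came from the paralog it was counted for, and the paralog ratios rest on that assignment. Reads counted for a gene that also matched another place made up 0.342% of CesA7-A, 0.394% of CesA7-B, 0.439% of CesA8-A and 0.355% of CesA8-B reads over the 4 libraries, and 0.00418% of CesA4 reads. The mean over all tested genes was 6.53% and the median 0.0361%. In CesA8-A the shared reads numbered 3 and 12 in MIR15, against 22 and 6 in WT. Its total reads numbered 2536 and 1894 in MIR15, against 3173 and 2187 in WT. A read given to the wrong paralog as a single match would not count as shared, and such reads were not tested for.

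Centred on its own mean, the average log2 CPM profile of the 5 genes was 0.02 and 0.01 in MIR15 replicates 1 and 2, and 0.22 and -0.24 in WT replicates 1 and 2. This common profile held 79.2% of the variation of the 5 genes around their own means. It is built from the same 5 genes, so part of that share is set in advance. No other gene set was measured in this way. The order from WT replicate 1 through MIR15 replicate 2 and MIR15 replicate 1 to WT replicate 2 was shared by CesA4, CesA7-A, CesA7-B and CesA8-B, and by 4.62% of the 16270 genes. The smallest distance between a pair of members, as the root mean square of centred log2 CPM over 4 libraries, was 0.03, for CesA4 and CesA7-B. The largest was 0.22, between the paralogs CesA8-A and CesA8-B. The SD of log2 CPM over the 4 libraries was 0.20 for CesA4, 0.19 for CesA7-A, 0.18 for CesA7-B, 0.26 for CesA8-A and 0.22 for CesA8-B, and the median over those genes was 0.15. These SDs include both genotypes.

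The 5 genes other than the members with the profile most like the average of the members over the 4 libraries were Potri.008G128000.1, Potri.006G261300.1, Potri.001G068100.1, Potri.002G013700.1 and Potri.006G046600.1, at distances from 0.01 to 0.02. In that average MIR15 replicates 1 and 2 stood at 0.02 and 0.01, while 4 of the 5 members were higher in MIR15 replicate 2. The likeness is thus to the average, not to each member. The members themselves lay at 0.03 (CesA4 and CesA7-B), 0.05 (CesA7-A), 0.07 (CesA8-B) and 0.16 (CesA8-A). Potri.008G128000.1, the closest, had 20.4 and 20.5 CPM in MIR15, against 23.6 and 17.1 CPM in WT. Of the genes other than the members, 1.69% were closer to the average than CesA8-B and 27.8% were closer than CesA8-A. Each member is part of that average, which draws its own distance down, and the other genes are not. These shares therefore make the members look closer than an average without them would. A likeness over 4 libraries carries no test, and the files give these IDs no name.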

How the data were processed

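For each gene and library the authors deposited 2 CLC read counts, unique and total per the file headers, and a signal normalised with DESeq, which the submitters' processing notes also name. That deposited signal equals the total reads divided by 1 factor per library, and only this was checked. Aligner settings, genome build, annotation and the handling of reads with several matches are not stated in the labels or headers. Groups and replicate numbers follow the sample titles; the headers of the MIR15 columns carry other numbers.

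The main test on total reads used edgeR 4.0.16 under R 4.3.3 (filterByExpr, TMM, quasi-likelihood F test, two-sided, genotype only), adjusted by Benjamini-Hochberg over 30975 genes. The SE was derived from the F statistic, and intervals use its degrees of freedom. CPM uses the library total. Class and paralog ratios were compared by the exact permutation test over libraries. Counting intervals are exact and cover counting error only. Alternatives were RLE factors, library total alone, other filters, a replicate block, leaving out each library, DESeq2 1.42.0 and unique reads.

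The members and lists were chosen with earlier results of these data known. The rule for named genes took the 5 members, picks from the pathway lists and the 5 genes of at least 10 CPM with the most similar profile. The pathway and marker lists were name patterns and could not be filled without an annotation; Potri.003G037700.1 is named outside the rule, after its values were seen.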

Additional observations from a re-analysis of the deposited data

How the results depend on the processing

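No alternative called any of the 5 genes (smallest edgeR or DESeq2 adjusted p = 0.962, over 55 fold changes from 11 alternatives). With all 4 libraries kept, the 35 log2 fold changes lay between -0.06 and 0.09 and kept their signs. Leaving out single libraries gave -0.20 to 0.31 for CesA4, -0.17 to 0.29 for CesA7-A, -0.14 to 0.32 for CesA7-B, -0.30 to 0.22 for CesA8-A and -0.21 to 0.34 for CesA8-B, and -0.20 to 0.31 for their median; a genotype left with 1 library is assumed to have the spread of the other. The sign turned without WT replicate 2 in all but CesA8-A (CesA4 -0.20, CesA7-A -0.17, CesA7-B -0.14, CesA8-B -0.21), without MIR15 replicate 2 in CesA7-A (-0.0072), CesA8-A (0.19) and CesA8-B (-0.03), and without WT replicate 1 in CesA8-A (0.22). The ratios, MIR15 minus WT on the log2 scale, ran from -0.0032 to 0.0478 for CesA7 over CesA4, -0.0208 to 0.0065 for CesA8 over CesA4, -0.0097 to 0.0686 for CesA7 over CesA8, -0.0753 to 0.0182 for the CesA7 pair and -0.40 to 0.21 for the CesA8 pair; the cause was not tested. In unique reads the share of CesA4 in MIR15 was 32.2%, against 32.1% in total reads, and no ratio turned.

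Over the whole table, against 1 called gene, DESeq2 called 14, and 0 were called in unique reads (768 at an unadjusted p under 0.05) and at a mean of at least 5 CPM (389). Leaving out single libraries gave 0 to 8: 8 without WT replicate 1 and 0 without either MIR15 replicate (882 without replicate 1 and 1351 without replicate 2 at an unadjusted p under 0.05). The fit with a replicate block on the title numbers called 120 genes by edgeR, none of them among the 5, whose median was 0.06. Same-numbered deviations correlated over genes (r = 0.27), but there are 2 pairs and no label on a shared origin, so the libraries were not treated as paired. Levels per coding length, and with them the order of the 5 genes by level, were not run, because no lengths were available here. Read depth limited these values little: counting error was small beside the spread between WT libraries.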
